A study of Homo sapiens with 9 samples.

Results

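The genes described are the long noncoding RNAs whose symbols begin with LINC or SNHG, together with MALAT1 and NEAT1, in RNA sequencing of a human breast cancer line with and without its Notch ligand JAG1. The members were chosen by symbol and by summed count: LINC or SNHG followed by digits only, or MALAT1 or NEAT1, with at least 100 counts over the 9 libraries of the deposited tables. This left 211 genes, of 1573 rows with such symbols and of 56505 rows in all: 191 LINC genes, 18 SNHG genes, MALAT1 and NEAT1. The sum runs over all groups and compares none of them. Just under the threshold stood LINC00326 and LINC00982 with 99 counts each, LINC01703 with 94 and SNHG9 with 86. Just above it stood LINC02192 with 100, LINC00484 with 102, LINC01465 with 105 and LINC01293 with 106. Without the 3 clone 1 libraries 15 members would have fallen under the same mean count per library, without clone 2 it would have been 3, and without wild type 9.

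The groups were JAG1 knockout clone 2 (labelled F), JAG1 knockout clone 1 (labelled E) and wild type (labelled R), with 3 libraries each, all MDA-MB-231-D3H2LN. This line derives from MDA-MB-231, a mesenchymal breast cancer line without oestrogen receptor, and was selected for spread to lymph nodes. For the knockouts, Cas9 protein was delivered with guide RNAs to a pair of sites in a JAG1 exon. Each knockout is 1 line, grown from a single cell and homozygous, so loss of JAG1 and clonal differences cannot be told apart. Whether replicates were separate cultures is not in the labels. P-values therefore cover the spread among these libraries only, and that spread may be technical. Fewer cells with a transcript and less transcript per cell cannot be told apart in bulk RNA. JAG1 counts were 1230, 1406 and 1190 in clone 2, 2130, 1699 and 1657 in clone 1, and 5069, 3803 and 3592 in wild type, so all 6 knockout libraries lay below the wild-type ones. Total counts ran from 16890890 to 22456164 per library. VIM, a marker of the line, averaged 1966 ± 292 CPM in clone 2, 845 ± 78.4 in clone 1 and 1218 ± 276 in wild type (CPM, a counts-per-million scale, by TMM-scaled library size, mean ± SD, n = 3 each). ESR1, the oestrogen receptor gene, averaged 0.331 ± 0.427 CPM in clone 2, 0.739 ± 0.577 in clone 1 and 0.515 ± 0.193 in wild type (n = 3 each). Of the other luminal markers, PGR and CDH1 had too few counts to be tested, but EPCAM and FOXA1 were detected. EPCAM averaged 12.3 ± 1.25 CPM in clone 2, 24.2 ± 2.09 in clone 1 and 17.9 ± 1.13 in wild type. FOXA1 averaged 3.72 ± 1.06, 1.79 ± 0.168 and 2.65 ± 0.998 CPM in the same order. Among blood and endothelial markers, 7 of 8 had too few counts to be tested.

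Long noncoding RNAs are transcribed and mostly spliced like messenger RNAs, but few encode a known protein. SNHG genes are hosts of small nucleolar RNAs (snoRNAs), which are cut out of their introns and guide chemical modification of ribosomal RNA, while the spliced host RNA is often short-lived. Many snoRNA hosts begin with a pyrimidine tract, the 5′TOP element, which is also found in ribosomal protein genes and links translation to growth signals. MALAT1 is a nuclear RNA of the splicing speckles, and NEAT1 is the RNA scaffold of paraspeckles, nuclear bodies that hold RNA-binding proteins. LINC is a naming prefix for intergenic transcripts and implies no common function.

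The starts of some SNHG genes are shown because a 5′TOP tract, where a gene has one, lies there. Each stretch runs from 10 bases before to 20 bases after the RefSeq transcription start (build GRCh38.p14), on the strand of the gene. Capitals mark a run of C and T whose first letter is the C nearest to the start, at most 5 bases away, with at least 4 pyrimidines after it.
SNHG12: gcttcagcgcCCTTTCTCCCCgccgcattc
SNHG18: gccgcgccgcCTCCTCCTCCTCCTCCTCCC
SNHG4: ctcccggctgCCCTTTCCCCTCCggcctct
SNHG5: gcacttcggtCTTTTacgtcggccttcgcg
SNHG8: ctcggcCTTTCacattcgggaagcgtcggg
SNHG7: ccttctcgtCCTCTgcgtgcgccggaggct
SNHG16: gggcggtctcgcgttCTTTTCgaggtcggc
SNHG17: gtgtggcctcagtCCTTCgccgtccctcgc
SNHG19: ccgcccctgtCTTTTCggggtcgagtccga
SNHG1: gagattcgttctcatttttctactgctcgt
SNHG3: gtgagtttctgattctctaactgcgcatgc
Of the 15 SNHG genes with a RefSeq window, 9 had such a run (60.0%), against 28 of 141 LINC genes (19.9%) and 21.1% of all 35116 windows in the table. SNHG1, SNHG3, SNHG10, SNHG11, SNHG20 and SNHG21 had none by this definition, and of these only SNHG1 and SNHG3 are printed. For SNHG12 the RefSeq start lay 1110 bases from the end of the deposited gene model, and for SNHG20 1927 bases, so the window may not be the start used in these cells.

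Per length, the SNHG genes were the more abundant family. RPKM (CPM per kilobase of the deposited exonic length, mean of the 9 libraries) had a median of 12.8 over the 18 SNHG genes and of 0.911 over the 191 LINC genes. Of the 20 highest members, 11 were SNHG genes. SNHG5, host of SNORD50, was highest at 111 RPKM in clone 2, 165 in clone 1 and 126 in wild type. Among LINC genes the highest was LINC00998 with 58.2 RPKM in clone 2, 97.1 in clone 1 and 80.2 in wild type. It was followed by LINC00704, now named MANCR, with 46.0, 96.3 and 52.3 RPKM in clone 2, clone 1 and wild type. Several abundant LINC genes are now known to encode small proteins: LINC00998 is SMIM30, a membrane protein, and LINC00116 is MTLN and LINC00493 is SMIM26, both of mitochondria. In all, RefSeq lists 8 of the 211 members as protein-coding and 202 as long noncoding RNA. MALAT1 and NEAT1 had 8.20 and 8.58 RPKM over all libraries, below 24 other members, although their long exons gave them high counts.

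Summed over the members, these RNAs were on average lowest in clone 2 and highest in clone 1. Together the 211 genes took 2068, 2393 and 1719 CPM of raw totals in clone 2, 3467, 3059 and 4137 in clone 1, and 2835, 2847 and 2231 in wild type. The lowest clone 1 library lay above every other library, while clone 2 and wild type overlapped. The LINC genes alone averaged 949.8 ± 79.2 such CPM in clone 2, 1507 ± 151.0 in clone 1 and 1189 ± 115.0 in wild type (mean ± SD, n = 3 each). The SNHG genes averaged 989.9 ± 212.1 in clone 2, 1604 ± 249.6 in clone 1 and 1187 ± 156.3 in wild type. Mitochondrially encoded messenger RNA took 0.843, 1.79 and 1.01% of counts in clone 2, 2.29, 3.61 and 4.91% in clone 1, and 2.52, 3.67 and 1.66% in wild type. Short snoRNA genes, which such libraries capture poorly, took 0.00276 ± 0.000856% in clone 2, 0.00711 ± 0.00138% in clone 1 and 0.00399 ± 0.000754% in wild type (n = 3 each). The part of RNA quality or library preparation in these sums was not tested.

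**Figure D1:**
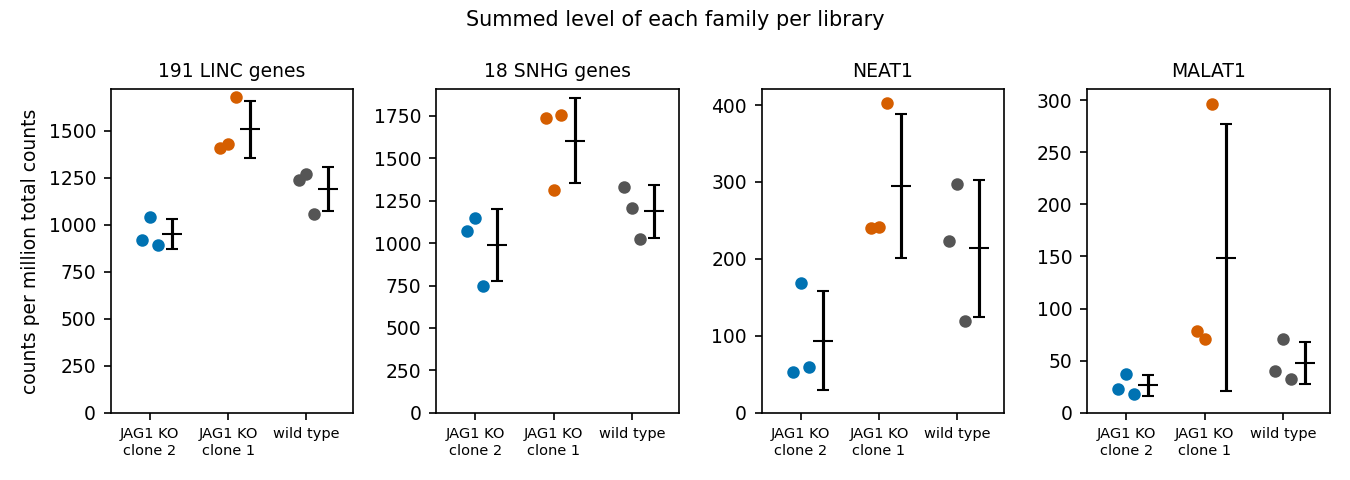
CPM of raw totals for the 191 LINC genes, the 18 SNHG genes, NEAT1 and MALAT1 in each library (points) with the mean ± SD (bars, n = 3 each) for clone 2, clone 1 and wild type, on linear axes from 0. The lowest LINC sum of clone 1 (1410) lies above the highest of clone 2 (1040) and of wild type (1272), and 1 clone 1 library holds 296.7 MALAT1 CPM.

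The clones differed from each other in many of these genes, and mostly in one direction. A gene was called at an adjusted p under 0.05 in edgeR's quasi-likelihood test (Benjamini-Hochberg over 16921 genes). Between clone 2 and clone 1, 62 of 211 members were called (29.4%), 6 higher and 56 lower in clone 2. Of all tested genes 33.9% were called, 19.8% higher and 14.1% lower, against 2.84 and 26.5% of the members. The median log2 fold change was −0.63 over the members and −0.01 over all tested genes, and 162 of 211 members had a negative value. By GENCODE 29 types, the median was −0.50 over 156 other lincRNA genes, −0.62 over 322 antisense genes and −0.67 over 77 processed transcripts. Over 13208 protein-coding genes it was 0.10. In 53 of the 56 lower members all 3 clone 2 libraries lay below all 3 clone 1 libraries, as in 94.9% of all genes called lower. Regardless of call, this held for 77 of 211 members (36.5%) and 21.6% of all tested genes. Of the 56, 28 kept the call whichever library was left out, a share not computed for all genes called lower. Without clone 1 replicate 3 the called members numbered 37, among 2387 higher and 1391 lower genes in all. Without clone 2 replicate 3 they numbered 38, among 2274 higher and 1365 lower genes, against 3353 and 2380 with every library. For 6 of the 56, including LINC01446, LINC00893 and LINC00173, the count threshold was met only through the clone 1 libraries, which had to favour this direction.

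Against wild type fewer members were called. In the fit of 3 groups the share called in either direction was near that of all tested genes in both clones. In clone 2, 13 members differed from wild type (6.16%), 4 higher and 9 lower, against 5.96% of all tested genes, 3.21% higher and 2.75% lower. Clone 2 and wild-type libraries of the same replicate number deviated together. With that number as a block over all 9 libraries, 26 members were called, 5 higher and 21 lower, among 1528 higher and 1171 lower genes in all. The clone 1 libraries, whose numbers were not taken as pairs, also entered every fit with this block. In clone 1, 9 members differed from wild type (4.27%), 5 higher and 4 lower, against 5.51% of all tested genes, 1.41% higher and 4.10% lower. The member medians were −0.26 in clone 2 and 0.30 in clone 1 (0.00 and −0.02 over all tested genes). Both comparisons use the same wild-type libraries. Of the 56 members lower in clone 2 than in clone 1, 45 were called against wild type in neither clone. The wild-type mean lay between the clone means for 51. Choosing genes by a difference between the clones favours both counts. Their shares over all genes called lower were not computed, so neither count is a result about the members. The clone 2 count was 5 without clone 2 replicate 3 (75 higher and 162 lower genes in all). It was 6 without wild-type replicate 1 (83 and 214 genes in all) or 2 (62 and 176). Without clone 2 replicate 2 it was 23 (483 and 730). The clone 1 count was 5 without clone 1 replicate 3 (41 higher and 159 lower genes in all). It was 6 without clone 1 replicate 2 (93 and 237) or wild-type replicate 3 (67 and 211). Without clone 2 replicate 1 it was 14 (445 and 856).

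**Figure D2:**
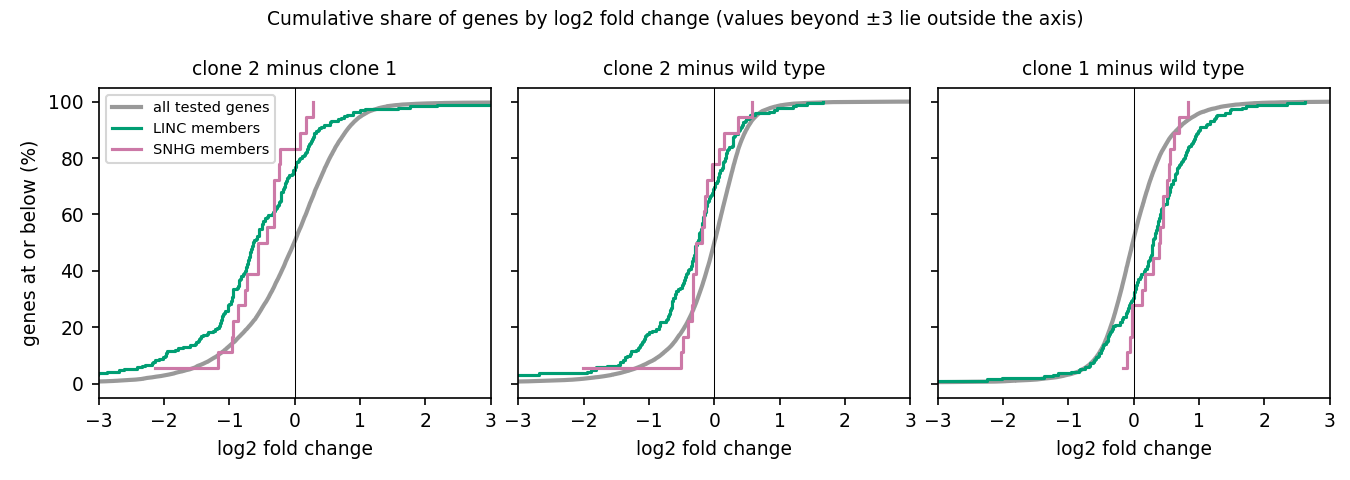
Cumulative share of genes (percent, y) at or below each log2 fold change (x) for the 191 LINC members, the 18 SNHG members and all 16921 tested genes, in clone 2 minus clone 1, clone 2 minus wild type and clone 1 minus wild type. Between the clones both families lie left of the curve for all genes, with medians of −0.63 (LINC), −0.49 (SNHG) and −0.01 (all).

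MALAT1 and NEAT1 were both lower in clone 2 than in clone 1, and both calls ended when certain single libraries were left out. MALAT1 (chromosome 11, 65497762 to 65506516, plus strand, GRCh38) stood at 26.9, 38.0 and 19.6 CPM in clone 2, 75.6, 67.3 and 279 in clone 1 and 39.6, 67.1 and 32.5 in wild type. Clone 1 replicate 3 was far above every other library, and clone 2 and wild type overlapped. MALAT1 fell in clone 2 relative to clone 1 (log2 fold change −2.32, SE 0.55, adjusted p = 0.0103 by edgeR). The call ended without clone 2 replicate 1 or 3 (adjusted p up to 0.114). It was not called in clone 2 against wild type (log2 fold change −0.72, SE 0.54, adjusted p = 0.453 by edgeR) or in clone 1 against wild type (log2 fold change 1.60, SE 0.54, adjusted p = 0.119). NEAT1 (65422774 to 65445540, plus strand), 52.2 kb away, stood at 62.2, 171 and 63.3 CPM in clone 2, 232, 229 and 378 in clone 1 and 219, 282 and 121 in wild type. All clone 2 libraries lay below all clone 1 libraries, but wild type overlapped with both. NEAT1 fell in clone 2 relative to clone 1 (log2 fold change −1.50, SE 0.44, adjusted p = 0.0269 by edgeR). That call ended without clone 1 replicate 3, clone 2 replicate 1 or 3, or wild-type replicate 1 (adjusted p up to 0.162). Against wild type its log2 fold change was −1.06 in clone 2 (adjusted p = 0.175 by edgeR) and 0.43 in clone 1 (adjusted p = 0.601). Gene counts do not separate its short and long isoforms. CMB9-22P13.1, an uncharacterised transcript between them on the same strand, had a log2 fold change of −1.53 in clone 2 against clone 1 (adjusted p = 0.0518 by edgeR).

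Genes for the proteins of these nuclear bodies were counted in the same comparisons. Between the clones 19.8% of all tested genes were higher and 14.1% lower in clone 2 (24.4 and 13.1% of protein-coding genes), with a median log2 fold change of −0.01. Of 15 genes for paraspeckle proteins, 13 were higher and 0 lower in clone 2 than in clone 1, with a median of 0.72. NONO, a core protein that binds NEAT1, stood at 481, 441 and 472 CPM in clone 2, 286, 254 and 250.5 in clone 1 and 337, 318 and 369.6 in wild type. The 2 clones did not overlap for NONO (log2 fold change 0.82, SE 0.14, adjusted p = 0.000693 by edgeR). Of 18 nuclear speckle proteins and MALAT1 binders, 4 were higher and 5 lower in clone 2 (median −0.17). The lower ones included the splicing factor SRSF11 (−0.78, adjusted p = 0.00291 by edgeR) and the splicing kinase CLK1 (−1.06, adjusted p = 0.0111). Against wild type 2 paraspeckle proteins were higher in clone 2 and 0 were called in clone 1, and 0 speckle proteins were called in either. Of all tested genes 3.21% were higher and 2.75% lower in clone 2 than in wild type. For clone 1 these shares were 1.41 and 4.10%. With shares this small, 0 calls in a list of 18 say little.

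Of the 18 SNHG genes, 7 were lower and 0 higher in clone 2 than in clone 1, and 15 had a negative log2 fold change. Of all tested genes 14.1% were lower and 19.8% higher, and 8525 of 16921 had a negative value. SNHG1, host of several C/D box snoRNAs including SNORD22, stood at 161, 173 and 90.7 CPM in clone 2, 317, 226 and 277 in clone 1 and 235, 168 and 156 in wild type. Clone 2 lay wholly below clone 1, and wild type overlapped with both (log2 fold change −0.95, SE 0.23, adjusted p = 0.00512 by edgeR, clone 2 against clone 1). SNHG12, host of SNORD99 and H/ACA snoRNAs, stood at 24.9, 35.1 and 18.98 CPM in clone 2, 53.4, 44.1 and 56.0 in clone 1 and 47.4, 34.3 and 30.3 in wild type. Its clones did not overlap either, and the wild-type libraries stretched into both ranges (log2 fold change −0.96, SE 0.21, adjusted p = 0.00327 by edgeR, clone 2 against clone 1). Both calls held whichever library was left out. SNHG17, host of the SNORA71 family (−0.86), SNHG20 (−0.76), SNHG19 (−0.72) and SNHG15 (−0.56) were called lower in clone 2 as well, at adjusted p of 0.0328 to 0.0478 by edgeR. These 4 calls each ended without clone 1 replicate 1 or 3, or clone 2 replicate 3. Those of SNHG17, SNHG19 and SNHG20 also ended without clone 2 replicate 1, and those of SNHG19 and SNHG20 without wild-type replicate 1. The highest adjusted p was 0.126 for SNHG17, 0.191 for SNHG20, 0.318 for SNHG19 and 0.188 for SNHG15.

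SNHG18, host of SNORD123, was the SNHG gene that differed most. It stood at 0.742, 1.21 and 0.807 CPM in clone 2, 2.38, 5.23 and 4.62 in clone 1 and 3.35, 5.20 and 2.62 in wild type. All 3 clone 2 libraries lay below all 6 others, while clone 1 and wild type overlapped. The log2 fold change of clone 2 was −2.13 against clone 1 (SE 0.41, adjusted p = 0.00119 by edgeR) and −2.01 against wild type (SE 0.41, adjusted p = 0.0115). The call against wild type ended without clone 2 replicate 3 or wild-type replicate 2 (adjusted p up to 0.0687). SNHG16, host of the SNORD1 family, was the 1 SNHG gene called higher in clone 2 than in wild type. It stood at 119, 98.4 and 91.5 CPM in clone 2, 100.1, 73.4 and 80.0 in clone 1 and 79.3, 62.6 and 64.0 in wild type. Clone 2 lay wholly above wild type, and clone 1 overlapped with both. The difference from wild type (log2 fold change 0.58, SE 0.16, adjusted p = 0.0406 by edgeR) was no longer called in 8 of the 9 leave-one-out fits, in all but that without clone 1 replicate 1 (up to 0.18).

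The rest of the SNHG genes were not called in any comparison. SNHG5 was at 375, 338 and 219 CPM in clone 2, 466, 350.1 and 565 in clone 1 and 344, 414 and 300.4 in wild type, with clone 1 and clone 2 overlapping (log2 fold change −0.57, SE 0.22, adjusted p = 0.0526 by edgeR, clone 2 against clone 1). SNHG3, host of SNORA73, gave −0.42 for the same comparison (adjusted p = 0.0516), although its clones did not overlap. Adjusted p lay between 0.158 and 0.881 for SNHG8 (−0.31), SNHG6 (−0.31), SNHG25 (−1.17), SNHG4 (−0.32), SNHG11 (−0.24), SNHG10 (0.18), SNHG7 (−0.22) and SNHG21 (0.08) by edgeR. SNHG25 had 14, 19 and 1 counts in clone 2, too few to compare closely. With the replicate number as a block, SNHG8 passed the threshold in clone 2 against wild type (log2 fold change −0.48, adjusted p = 0.0278 by edgeR, against 0.0935 without the block).

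**Figure D3:**
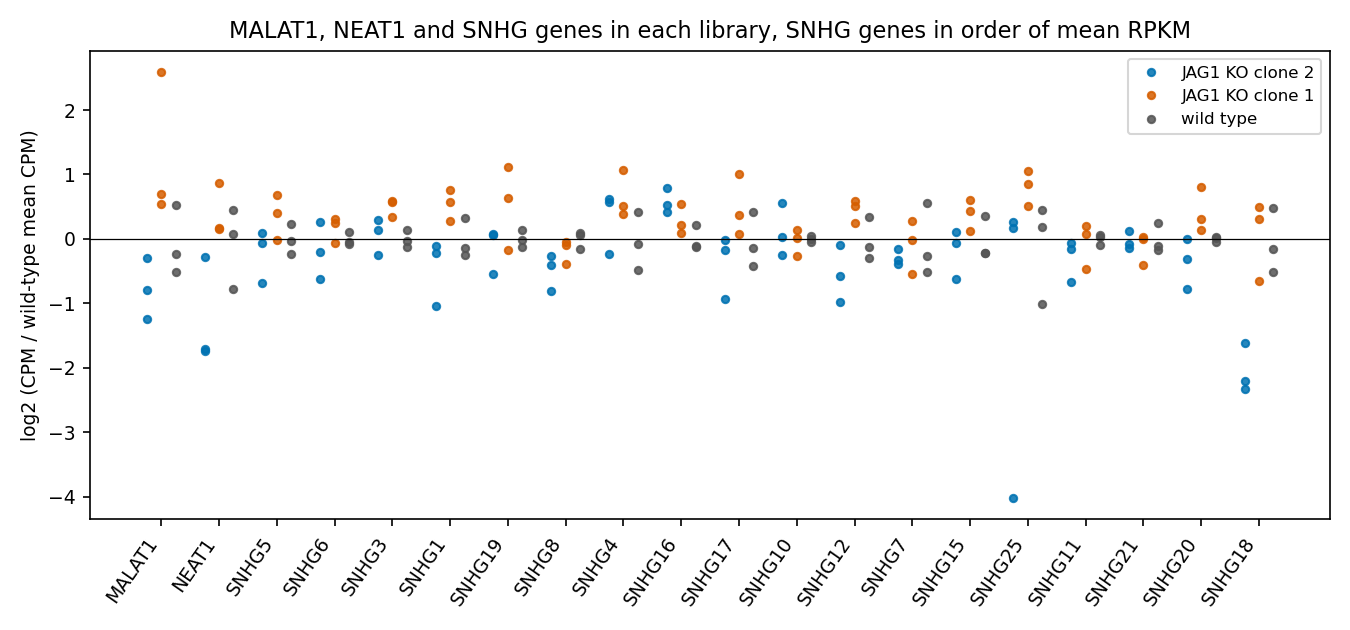
CPM of MALAT1, NEAT1 and each SNHG gene in every library relative to the wild-type mean (log2, y), with clone 2, clone 1 and wild type side by side per gene. SNHG18 is low in all 3 clone 2 libraries (0.742 to 1.21 CPM, against 2.62 to 5.20 in wild type), MALAT1 is high in 1 clone 1 library, and SNHG25 is low in 1 clone 2 library with 1 count.

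Host genes outside the SNHG names, most of them protein-coding, numbered 27. Of these, 12 were higher and 3 lower in clone 2 than in clone 1 (median log2 fold change 0.38). Over all tested genes 19.8% were higher and 14.1% lower. Over protein-coding genes, the closer background for most lists here, 24.4% were higher and 13.1% lower (median 0.10). The lower hosts were the noncoding GAS5 (−0.97, adjusted p = 0.00277 by edgeR), TAF1D (−0.80, 0.00445) and EIF4A1 (−1.26, 0.00398). EIF4A1 averaged only 6.91 CPM in clone 2, 16.55 in clone 1 and 10.56 in wild type. Its relative EIF4A2 averaged 499.9, 533.0 and 535.9 in the same order. How fully the EIF4A1 row counts that gene was not tested. GAS5 was also lower in clone 2 than in wild type (−0.82, adjusted p = 0.0344 by edgeR). The noncoding hosts ZFAS1 (−0.04) and EPB41L4A-AS1 (−0.12) were not called between the clones (adjusted p = 0.873 and 0.733 by edgeR). NCL, which encodes the nucleolar protein nucleolin, stood at 825, 848 and 1074 CPM in clone 2, 369, 294 and 296 in clone 1 and 435, 458 and 741 in wild type. The clones did not overlap (log2 fold change 1.52, SE 0.21, adjusted p = 0.000132 by edgeR), and EEF2, a translation elongation factor, gave a log2 fold change of 1.70 (adjusted p = 4.17e-05). Of 20 proteins that build snoRNA particles, 10 were higher and 1 lower in clone 2 (median 0.55). Of 18 factors of nonsense-mediated decay, the pathway that degrades many spliced SNHG RNAs, 11 were higher and 0 lower (median 0.45). The helicase UPF1 stood at 177, 200.4 and 230.4 CPM in clone 2, 111, 96.0 and 95.3 in clone 1 and 118, 119 and 149 in wild type (log2 fold change 1.01, SE 0.15, adjusted p = 0.000207 by edgeR, clone 2 against clone 1). Among 24 tested long noncoding RNAs with other names, 1 was higher and 7 lower (median −0.42). The higher one was NORAD, a cytoplasmic RNA that binds Pumilio proteins, at 390.0, 520.3 and 577 CPM in clone 2, 206, 231 and 249.9 in clone 1 and 255, 321 and 369 in wild type (log2 fold change 1.11, SE 0.18, adjusted p = 0.000404 by edgeR, clone 2 against clone 1). GABPB1-AS1 (−1.64, adjusted p = 0.000776) and MIR22HG (−1.03, adjusted p = 0.00162) were among the lower ones. For mitochondrial messenger RNA, 12 of 13 genes were lower in clone 2 and 0 higher, with a median of −1.43.

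Some LINC genes were on in one line and nearly off in another. LINC00665 (chromosome 19, 36313067 to 36331718, minus strand), a transcript reported to encode a micropeptide in breast cancer cells, was the 1 member called in all 3 comparisons. It stood at 15.0, 8.86 and 12.9 CPM in clone 2, 0.311, 0 and 0.111 in clone 1 and 3.45, 4.19 and 3.92 in wild type, and no 2 groups overlapped. The log2 fold change was 6.41 in clone 2 against clone 1 (SE 0.50, adjusted p = 6.52e-07 by edgeR) and −4.74 in clone 1 against wild type (SE 0.52, adjusted p = 4.48e-05). The rise in clone 2 against wild type (log2 fold change 1.67, SE 0.34, adjusted p = 0.0119 by edgeR) was no longer called without clone 2 replicate 3 or wild-type replicate 1 (adjusted p up to 0.0542). The neighbour ZFP14, a zinc finger gene 2.70 kb away, had log2 fold changes of −0.17 in clone 2 and −0.38 in clone 1 against wild type (adjusted p = 0.836 and 0.607 by edgeR).

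The 300 bases around the RefSeq start of LINC00665 (250 before, 50 after, chr19:36331669-36331968 on the minus strand of GRCh38.p14) are shown because this gene changed in all comparisons and because the window holds the core letters bound by RBPJ, the DNA-binding factor of Notch signalling. The RBPJ core searched was TGGGAA. The CCAAT box was searched by those 5 letters. For the Sp1 site, named GC box, the motif was GGGCGG. Capitals mark matches on either strand, with 1 CCAAT match sharing bases with an RBPJ match.
LINC00665: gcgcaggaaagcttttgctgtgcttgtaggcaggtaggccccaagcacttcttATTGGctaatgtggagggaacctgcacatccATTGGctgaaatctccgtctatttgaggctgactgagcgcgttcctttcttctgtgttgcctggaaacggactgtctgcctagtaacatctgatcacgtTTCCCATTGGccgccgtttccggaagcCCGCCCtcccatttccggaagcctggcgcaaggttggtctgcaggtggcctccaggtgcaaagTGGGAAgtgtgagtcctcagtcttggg
The RBPJ core letters stood in 43 of 157 member windows (27.4%), against 24.0% of all 35116 windows. The CCAAT box stood in 38.2% of member windows and 34.6% of all windows, and the GC box in 47.8% of member windows and 45.0% of all. The E-box, with the letters CACGTG, stood in 8.28% of member windows and 7.26% of all. The TATA box was searched as TATAAA and stood in 12.1% of member windows and 11.5% of all. By family, the GC box stood in 12 of 15 SNHG windows (80.0%) and 44.0% of LINC windows. A match of letters is not a binding site, and these shares were not tested.

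In clone 1, LINC01419 (chromosome 8, 83403758 to 83408900, plus strand) was nearly absent. It had 8, 48 and 39 counts in clone 2, 0, 3 and 0 in clone 1, and 48, 118 and 98 in wild type, so that clone 1 and wild type did not overlap. The wild type to clone 1 ratio was 80.0 (95% counting interval 27.1 to 391, counting error only), and the adjusted p was 0.000401 by edgeR. Clone 2 was not called against wild type (adjusted p = 0.14 by edgeR), except with the block, where it was lower (log2 fold change −1.52, adjusted p = 0.0203). LINC00707 (chromosome 10, 6779598 to 6842906, plus strand) stood at 8.04, 7.50 and 10.1 CPM in clone 2, 2.28, 2.71 and 2.51 in clone 1 and 3.69, 4.49 and 9.55 in wild type. All 3 clone 1 libraries lay below the other 6. It fell in clone 1 against wild type (log2 fold change −1.24, SE 0.33, adjusted p = 0.0405 by edgeR). That call ended without any 1 clone 1 library, clone 2 replicate 2 or wild-type replicate 3 (up to 0.315). It was higher in clone 2 than in clone 1 (log2 fold change 1.77, SE 0.33, adjusted p = 0.00103 by edgeR).

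Higher in clone 1 than in wild type were LINC01322, LINC00704, LINC00705 and LINC00973, all 4 also higher there than in clone 2. LINC01322 (chromosome 3, 165206960 to 165655423, plus strand) stood at 1.98, 2.52 and 3.70 CPM in clone 2, 8.80, 7.56 and 12.2 in clone 1 and 1.80, 1.01 and 1.81 in wild type. Clone 1 lay above every other library (log2 fold change 2.63, SE 0.34, adjusted p = 0.000262 by edgeR, clone 1 against wild type). LINC00704, or MANCR, an RNA studied in mitosis of aggressive breast cancer cells, lies on chromosome 10 (4650185 to 4678154, minus strand). It stood at 92.7, 86.6 and 85.8 CPM in clone 2, 165, 172 and 218 in clone 1 and 112, 85.8 and 103 in wild type. Again clone 1 lay above every other library, and clone 2 and wild type overlapped (log2 fold change 0.88, SE 0.15, adjusted p = 0.00312 by edgeR, clone 1 against wild type). LINC00705 (4655427 to 4662419, plus strand) lies within it on the opposite strand and shares 219 exonic bases, where unstranded counting cannot separate the pair. It stood at 3.53, 6.49 and 2.33 CPM in clone 2, 20.4, 13.6 and 22.3 in clone 1 and 8.31, 5.71 and 6.29 in wild type, with clone 1 on top (log2 fold change 1.47, SE 0.31, adjusted p = 0.0137 by edgeR, clone 1 against wild type). That call ended without clone 1 replicate 3 or wild-type replicate 3 (adjusted p up to 0.0852). LINC00973 (chromosome 3, 98981058 to 98983096, plus strand) stood at 46.8, 44.6 and 39.95 CPM in clone 2, 52.0, 53.0 and 75.9 in clone 1 and 27.1, 26.7 and 36.3 in wild type, with no overlap between any 2 groups. It rose in clone 1 against wild type (log2 fold change 1.00, SE 0.17, adjusted p = 0.00385 by edgeR), and its rise in clone 2 was called only with the block (log2 fold change 0.57, adjusted p = 0.0103 by edgeR, against 0.0718 without). Its call between the clones (−0.46, adjusted p = 0.0482 by edgeR) ended without clone 1 replicate 3, clone 2 replicate 2 or 3, or wild-type replicate 1 (up to 0.305). With a trend over GC content and length removed, the value was 0.008 (adjusted p = 0.976 by edgeR).

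The windows of LINC01322 and LINC00704 are shown because these were the largest and the most abundant of the clone 1 increases, on the same terms as above. LINC01322 (chr3:165206698-165206997, plus strand) holds a TATA box 88 bases before the start, and LINC00704 (chr10:4678021-4678320, minus strand) a CCAAT box beside it, in capitals.
LINC01322: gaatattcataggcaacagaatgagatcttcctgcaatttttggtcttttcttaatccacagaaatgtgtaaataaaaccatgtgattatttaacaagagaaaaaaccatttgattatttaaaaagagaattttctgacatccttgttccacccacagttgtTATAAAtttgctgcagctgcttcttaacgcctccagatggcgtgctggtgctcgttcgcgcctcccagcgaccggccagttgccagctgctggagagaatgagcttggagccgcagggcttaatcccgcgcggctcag
LINC00704: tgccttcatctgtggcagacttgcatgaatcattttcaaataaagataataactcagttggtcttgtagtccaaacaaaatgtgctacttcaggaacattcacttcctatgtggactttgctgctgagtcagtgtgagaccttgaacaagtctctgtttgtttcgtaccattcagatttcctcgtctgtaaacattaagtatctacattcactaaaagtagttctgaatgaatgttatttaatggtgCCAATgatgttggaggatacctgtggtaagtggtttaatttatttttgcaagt
Neither window held TGGGAA or GGGCGG on either strand.

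In clone 2, several LINC genes gave no or almost no counts. LINC00989 (chromosome 4, 79492416 to 79576460, plus strand) had 0 counts in all 3 clone 2 libraries, 26, 77 and 57 in clone 1, and 29, 103 and 52 in wild type. Against a floor of 3 counts over the group it was at least 53.0-fold lower in clone 2 than in clone 1 and at least 55.4-fold lower than in wild type (adjusted p = 8.35e-05 and 0.000385 by edgeR). LINC01446 (chromosome 7, 53655509 to 53811931, minus strand) also had 0 counts in clone 2, with 27, 40 and 51 in clone 1, and 21, 2 and 11 in wild type. It was at least 39.1-fold lower in clone 2 than in clone 1 and at least 10.2-fold lower than in wild type (adjusted p = 0.000491 and 0.0234 by edgeR). The call against wild type ended without clone 2 replicate 3 or wild-type replicate 1 (up to 0.0836). LINC02211 (chromosome 5, 25190682 to 25306172, plus strand) had 0, 0 and 2 counts in clone 2, 38, 49 and 41 in clone 1, and 61, 32 and 18 in wild type. Clone 1 exceeded clone 2 by a ratio of 63.6 (95% counting interval 17.2 to 530.0) and wild type exceeded it by 50.1 (13.6 to 419). Both tested neighbours, uncharacterised transcripts, were lower in clone 2 than in wild type as well. The one 13.7 kb away had 0 counts in clone 2 and averaged 0.883 CPM in wild type (adjusted p = 0.00453 by edgeR). RP11-549K20.1, next to LINC02211 on the other strand, averaged 0.0636 CPM in clone 2 and 0.777 in wild type (adjusted p = 0.033 by edgeR). LINC01285 (chromosome X, 118839554 to 118919669, plus strand) had 0, 0 and 4 counts in clone 2, 44, 136 and 129 in clone 1, and 32, 99 and 50 in wild type (log2 fold change −5.21, SE 0.80, adjusted p = 0.00186 by edgeR, clone 2 against wild type).

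LINC00346, also named PRECSIT and known as a p53-regulated RNA (chromosome 13, 110863987 to 110870251, minus strand), had 1, 2 and 2 counts in clone 2, 3, 11 and 14 in clone 1, and 27, 47 and 52 in wild type. Both clones lay below wild type in every library, but the test passed in clone 2 (log2 fold change −4.42, SE 0.75, adjusted p = 0.00335 by edgeR) and not in clone 1 (log2 fold change −2.01, SE 0.61, adjusted p = 0.066). It met the count threshold only through the wild-type libraries, which had to favour a decrease. The clones also differed (−2.41, adjusted p = 0.0284 by edgeR). That call ended without clone 1 replicate 2 or 3, or any 1 clone 2 library (up to 0.128). Its neighbour ANKRD10, 8.30 kb away on the same strand, was also lower in clone 2 than in wild type (−0.81, adjusted p = 0.00971 by edgeR). LINC00173 had 0, 3 and 2 counts in clone 2, 15, 14 and 20 in clone 1, and 16, 31 and 13 in wild type. It fell in clone 2 against wild type (log2 fold change −3.35, SE 0.81, adjusted p = 0.0263 by edgeR), a call that ended without clone 2 replicate 3 or wild-type replicate 1 or 2 (up to 0.135). LINC00173 met the count threshold only with the clone 1 and with the wild-type libraries, which had to favour low values in clone 2. LINC00511, an RNA often studied in breast cancer and named here after its values were seen, stood at 34.8, 26.7 and 25.6 CPM in clone 2, 32.7, 34.3 and 31.1 in clone 1 and 46.3, 48.0 and 42.0 in wild type. All 6 knockout libraries lay below the wild-type ones, and the test passed in clone 2 (log2 fold change −0.65, SE 0.15, adjusted p = 0.0208 by edgeR) but not in clone 1 (log2 fold change −0.47, SE 0.15, adjusted p = 0.0741). The clone 2 call ended without clone 2 replicate 3 or wild-type replicate 1 or 2 (up to 0.105). LINC01963 stood at 8.23, 8.33 and 8.26 CPM in clone 2, 6.21, 3.61 and 2.51 in clone 1 and 3.89, 3.22 and 3.62 in wild type. Clone 2 lay above every other library (log2 fold change 1.21, SE 0.30, adjusted p = 0.0289 by edgeR, clone 2 against wild type). The same 3 omissions each ended this call (up to 0.128).

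Of the 211 members, 2 were called in the same direction in both clones against the shared wild-type libraries (0.948%), as were 0.609% of all tested genes. LINC01929 (chromosome 18, 55105904 to 55124306, minus strand) stood at 0.804, 1.06 and 0.427 CPM in clone 2, 1.40, 1.43 and 0.279 in clone 1 and 3.89, 8.08 and 2.87 in wild type. All 6 knockout libraries lay below the wild-type ones. It fell by edgeR in clone 2 (log2 fold change −2.69, SE 0.56, adjusted p = 0.0121) and in clone 1 (log2 fold change −2.24, SE 0.54, adjusted p = 0.0261). The clone 2 call ended without clone 2 replicate 3 or wild-type replicate 2 (up to 0.0908), and the clone 1 call without any 1 clone 1 library or wild-type replicate 2 (up to 0.132). LINC01792 (chromosome 2, 200712305 to 200735177, minus strand) stood at 5.01, 3.68 and 3.56 CPM in clone 2, 2.75, 4.57 and 4.79 in clone 1 and 1.75, 1.40 and 1.96 in wild type. All 6 knockout libraries lay above the wild-type ones. It rose by edgeR in clone 2 (log2 fold change 1.26, SE 0.33, adjusted p = 0.0362) and in clone 1 (log2 fold change 1.24, SE 0.33, adjusted p = 0.039). Both calls ended without wild-type replicate 1 or 2, or clone 1 replicate 2 or 3. The clone 2 call also ended without clone 2 replicate 1 or 3 (up to 0.164), and the clone 1 call without wild-type replicate 3 (up to 0.174).

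**Figure D4:**
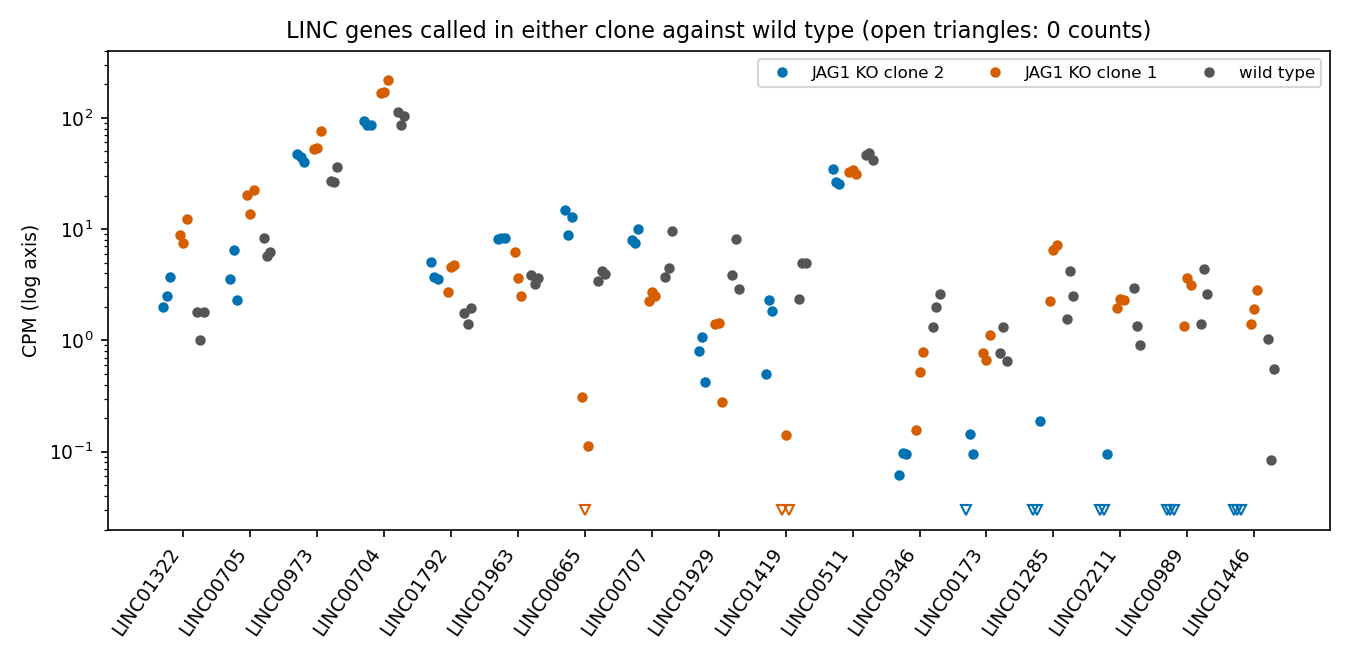
CPM (log axis) in each library of the 17 LINC genes called in either clone against wild type, with clone 2, clone 1 and wild type side by side per gene and open triangles for libraries with 0 counts. LINC00665 is near 0 in clone 1 and highest in clone 2 (8.86 to 15.0 CPM), while LINC00989 and LINC01446 have 0 counts in all 3 clone 2 libraries.

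Between the clones, 45 further members were called lower in clone 2 without being called against wild type, among them LINC00998 and LINC00493 of the small-protein genes. LINC00998 (SMIM30) stood at 121, 116 and 93.9 CPM in clone 2, 158, 174 and 221 in clone 1 and 144, 172 and 140.3 in wild type. Clone 2 lay below every other library (log2 fold change −0.74, SE 0.16, adjusted p = 0.00268 by edgeR, clone 2 against clone 1). LINC00493 (SMIM26) stood at 17.7, 13.9 and 13.0 CPM in clone 2, 22.1, 21.1 and 26.1 in clone 1 and 20.1, 22.8 and 21.5 in wild type. Again clone 2 lay below every other library (log2 fold change −0.64, SE 0.17, adjusted p = 0.00941 by edgeR, clone 2 against clone 1). Without clone 1 replicate 3 the adjusted p was 0.0583. With the block both also passed in clone 2 against wild type (log2 fold change −0.46 with adjusted p = 0.0344 for LINC00998, and −0.54 with adjusted p = 0.0292 for LINC00493, by edgeR). LINC00116 (MTLN) was not called (log2 fold change −0.55, SE 0.21, adjusted p = 0.0548 by edgeR, clone 2 against clone 1), nor was LINC01711, the sixth LINC gene by RPKM (log2 fold change 0.26, SE 0.34, adjusted p = 0.586). LINC00893 on the X chromosome overlaps CXorf40A on the other strand by 347 exonic bases. It had 0, 0 and 8 counts in clone 2, 27, 29 and 42 in clone 1, and 8, 19 and 8 in wild type (log2 fold change −3.61, SE 0.90, adjusted p = 0.00618 by edgeR, clone 2 against clone 1). Higher in clone 2 than in clone 1 without a call against wild type were LINC01291 (2.17, adjusted p = 0.0338) and LINC00094, now the protein-coding BRD3OS (0.53, adjusted p = 0.0288 by edgeR). LINC01291 met the count threshold only through the clone 2 libraries, which had to favour this direction. Its call ended without any 1 clone 1 library or clone 2 replicate 3 (up to 0.198). The LINC00094 call ended without clone 1 replicate 2 or 3, any 1 clone 2 library or wild-type replicate 3 (up to 0.102).

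**Figure D5:**
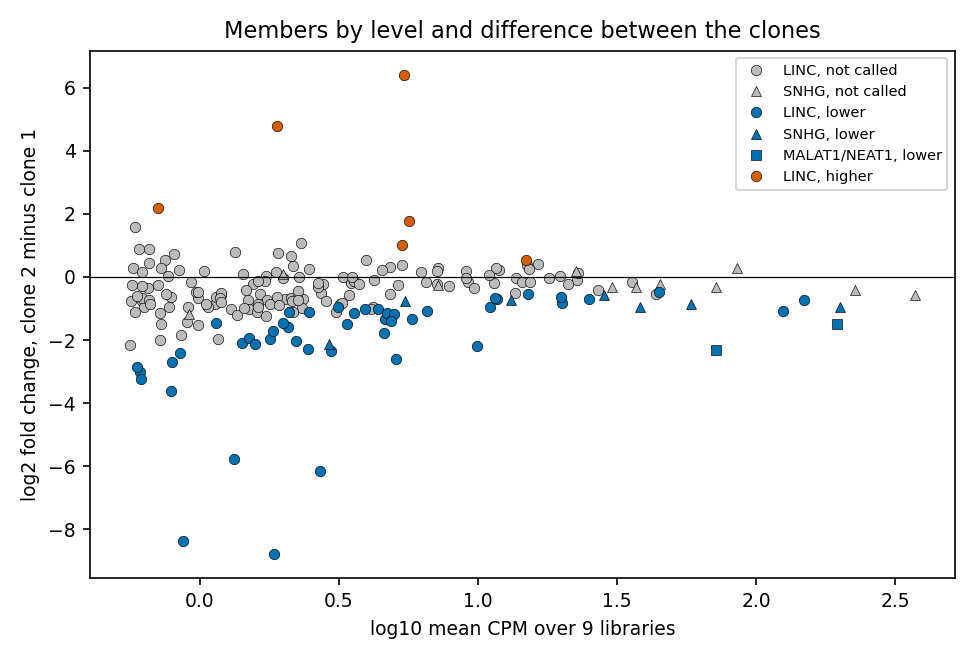
Log2 fold change of clone 2 minus clone 1 (y) against the log10 mean CPM over 9 libraries (x) for all 211 members, coloured by call and shaped by family. Of the 56 lower members 34 lie under 5 CPM, as do 145 of all 211 members. The 2 most abundant members, SNHG5 and SNHG3, are not among the lower ones. The 6 higher ones are all LINC genes, led by LINC00665 at 6.41.

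Exons of 60 of the 211 members overlap a gene on the other strand and those of 38 overlap one on the same strand, and the sources do not give the strand setting of the counting. Of the 125 members without any such overlap, 5 were higher and 35 lower in clone 2 than in clone 1, against 19.8 and 14.1% of all tested genes. Of the same 125, 3 higher and 7 lower were called in clone 2 against wild type (3.21 and 2.75% of all), and 3 higher and 4 lower in clone 1 against wild type (1.41 and 4.10% of all). Many members were close to the limit of counting, with 145 under 5 CPM and 47 under 1 CPM over the 9 libraries, so that changes of small size in them were not detectable at this depth.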

How the data were processed

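RNA sequencing of 9 libraries was analysed from raw counts per gene that the authors deposited in 2 tables. Columns of the 3 wild-type libraries were the same in each and entered once. The build GRCh38 and the tools STAR, Subread, featureCounts and DESeq2 are named per the submitters' processing notes. Versions, annotation and strand handling: not given in the sources used here. The members and gene lists were chosen with earlier results of these data known.

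Counts were tested with edgeR 4.0.16 in R 4.3.3: TMM, filterByExpr with a minimum count of 10 (16921 genes, all 211 members), and a robust quasi-likelihood fit of 3 groups (6 residual degrees of freedom, biological coefficient of variation 20.3%), two-sided, with Benjamini-Hochberg adjustment over all tested genes. On simulated counts with known fold changes the fit was tested first. CPM used TMM-scaled library sizes and RPKM the deposited lengths. Bounds and intervals cover counting error only, since PCR copies cannot be told from separate molecules.

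Named were MALAT1, NEAT1, all SNHG genes, the 6 LINC genes with the highest RPKM, the 6 largest called increases and decreases of each comparison, LINC genes called alike in both clones, members at the threshold, and up to 3 genes per list. RefSeq (GRCh38.p14) matched 179 members by symbol and 32 by an older one, and gave promoter windows for 157. Libraries of clone 2 and wild type with the same replicate number deviated together from their group means (correlations over genes of 0.223, 0.269 and 0.246). Unlike numbers of these 2 groups gave −0.246 to −0.011. Clone 1 replicate 3, however, gave 0.215 with wild-type replicate 2 and 0.202 with clone 2 replicate 2, so unlike numbers can reach similar values. The numbers were taken as pairs for clone 2 and wild type, but the labels do not say what the numbers mark. The block was fitted over all 9 libraries, so clone 1 libraries also entered its effects and the estimate of the spread. Alternatives were RLE size factors, no filter, DESeq2 1.42.0, limma-voom (limma 3.58.1), only the 6 libraries compared, a replicate block, each library left out, and, added after the data were seen, removal of a trend over GC content and length.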

Additional observations from a re-analysis of the deposited data

Results flagged for a closer look

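The difference between the clones is also the difference between their effects against the shared wild-type libraries. edgeR's test of it passed for 28 of the named members, listed here, and for 33.9% of all tested genes. Named genes outside the members are not counted in the 28. Many LINC genes were named because they were called, some in this very comparison. Their passing was fixed by that choice, so the count of 28 is no result about the members. The log2 fold change of clone 2 against clone 1 was 6.41 for LINC00665, 4.79 for LINC01419, 2.17 for LINC01291, 1.77 for LINC00707, 1.01 for LINC01963 and 0.53 for LINC00094. The genes lower in clone 2 with few or no counts there were LINC00989 (−8.78), LINC01446 (−8.36), LINC01285 (−6.15), LINC02211 (−5.76), LINC00893 (−3.61), LINC00173 (−3.23) and LINC00346 (−2.41), where fitted values depend on the prior count and are no bounds. The other LINC genes were LINC00705 (−2.18), LINC01322 (−1.79), LINC00704 (−1.07), LINC00998 (−0.74), LINC00493 (−0.64) and LINC00973 (−0.46). MALAT1 differed by −2.32 and NEAT1 by −1.50. The SNHG genes were SNHG18 (−2.13), SNHG12 (−0.96), SNHG1 (−0.95), SNHG17 (−0.86), SNHG20 (−0.76), SNHG19 (−0.72) and SNHG15 (−0.56).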

How the results depend on the processing

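The direction of the members' median held in each of the 16 alternatives run for each comparison, from −0.66 to −0.52 in clone 2 against clone 1, from −0.41 to −0.20 in clone 2 against wild type, and from 0.21 to 0.38 in clone 1 against wild type. DESeq2 and the edgeR fit without the filter both ran over 31961 genes. In clone 2 against clone 1 the median of all these genes was −0.142 and −0.137, with the members at −0.658 and −0.654. The counts of called members against wild type moved most. In brackets stand all genes called higher and lower. Without the filter on low counts they were 25 in clone 2 (687 and 976 of 31961 genes) and 15 in clone 1 (461 and 1051). With only the 6 libraries compared they were 8 (160 and 256 of 15917 genes) and 15 (508 and 788 of 16513). This was against 13 (543 and 465 of 16921 genes) and 9 (239 and 694). With the replicate block they were 26 (1528 and 1171) and 19 (751 and 1571). Between the clones 77 members were called with the block (7 higher, 70 lower), among 3987 higher and 3114 lower genes in all. There the calls of MALAT1 (adjusted p = 0.0934 by edgeR) and NEAT1 (0.0577) were not kept. Clone 1 libraries shared only a number with the others (correlations of 0.245, 0.082 and −0.097 with wild type). Leaving out 1 library gave 5 to 23 called members in clone 2, 5 to 14 in clone 1 and 37 to 71 between the clones, against 13, 9 and 62. The 71, without clone 2 replicate 2, stood among 2774 higher and 2632 lower genes in all. Of 2044 values of named members under an alternative, 1865 kept direction and side of the threshold or stayed uncalled. Another 107 lost their call, 71 gained one and 1 called value turned. That was LINC00973 in clone 2 against clone 1, at 0.008 (adjusted p = 0.976 by edgeR) with the trend over GC content and length removed. The cause was not tested. Counting uncalled values too, the sign changed in 45 of the 2044. Depth limits the 47 members under 1 CPM most.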
